A study of Mus musculus with 2 samples.

Results

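Kit-positive mammary carcinoma nuclei were 91 of the 1838 barcodes in a single-nucleus RNA matrix of mouse PyMT mammary tumours. They were chosen by a fixed gate on the counts. A nucleus needed at least 1000 unique molecular identifiers (UMIs, distinct captured RNA molecules) and at most 5% of them from mitochondrially encoded genes, which left 1489 nuclei. It also needed at least 1000 CPM (UMIs of a gene per 1000000 UMIs of the nucleus) summed over 5 epithelial genes (Epcam, Krt8, Krt18, Cdh1 and Elf5) and under 300 CPM summed over 4 leukocyte and macrophage genes (Ptprc, Csf1r, Adgre1 and Mertk), which left 185 nuclei. Of these, 91 had 2 or more Kit UMIs and are the Kit-positive nuclei, and 94 had 0 or 1 and are called Kit-low here. The levels of these 10 genes follow from the gate and are given only as a description. The gate asks for epithelial genes, and whether a nucleus came from carcinoma or from normal mammary epithelium was not tested.

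The study held 2 samples, 1 from MYC-PyMT mice (S100a8-cre with Rosa26-LSL-MYC and the PyMT oncogene) and 1 from control-PyMT mice, on a background backcrossed to B6. In the MYC-PyMT mice the promoter of S100a8, a neutrophil gene, drives the cre that switches on MYC. Both kinds of mice were irradiated at 7 weeks of age and received marrow of mice with Fcgr1-cre and Rosa26-LSL-H2B-mCherry, then ate a low protein diet from 2 weeks later for 6 weeks. The sort aimed at macrophage nuclei marked by mCherry, an allele of the donor marrow and not of the host whose tumours grew, and how many mice each sample held is not given in the sources used here. The matrix has 2 wells that no label ties to a genotype, so it was treated as 1 pooled sample: nuclei are not replicates, no test between genotypes or between sets was possible, and all intervals are 95% intervals for counting error alone.

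KIT is a receptor tyrosine kinase whose ligand is KIT ligand (stem cell factor, Kitl). In the mammary gland it marks luminal progenitors, the cells that under prolactin, STAT5 and the transcription factor ELF5 give rise to the alveolar cells that make milk. Mast cells and melanocytes carry it too, so their markers were measured in the same nuclei.

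Kit itself lies on the plus strand at chr5:75574916-75656722 of GRCm38, the assembly also named mm10. It had 1318 UMIs in the Kit-positive nuclei, 34 in the Kit-low nuclei and 27 in 846 nuclei of the macrophage set (at least 1000 CPM of the 4 leukocyte genes and under 300 CPM of the epithelial ones). The level per nucleus in the Kit-positive set ran from 84.0 to 3591 CPM with a median of 721 CPM, and 26 of the 846 macrophage-set nuclei (3.07%, exact interval 2.02 to 4.47%) had a Kit UMI at all. The 17 nuclei just inside the gate, with 2 Kit UMIs, had a median of 297 CPM, and the 34 just outside it, with 1 Kit UMI, had a median of 298 CPM. Both groups thus had like Kit levels and differed in depth, with medians of 6741 and 3361 UMIs per nucleus. A further 17 nuclei with 2 or more Kit UMIs passed the leukocyte gate but held only 160 to 946 CPM of the epithelial genes, and 11 failed the leukocyte gate at 306 to 1711 CPM.

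Depth differed widely between the sets. The Kit-positive nuclei had a median of 13823 UMIs (range 1114 to 103328), against 3115.5 UMIs (range 1004 to 38700) in the Kit-low nuclei. At the summed Kit level of the Kit-positive nuclei, 626 CPM, a nucleus of 3115.5 UMIs would hold 1.95 Kit UMIs on average, just under the 2 that the gate asks for. Among gate nuclei of at least 5000 UMIs, 74 of 105 were Kit-positive (70.5%, interval 60.8 to 79.0%), and among shallower ones 17 of 80 were (21.3%, 12.9 to 31.8%). By well, 85 of 164 gate nuclei were Kit-positive in well 1 (51.8%, 43.9 to 59.7%) and 6 of 21 in well 2 (28.6%, 11.3 to 52.2%). Because of the depth gap, levels are given in 2 ways below: as mean CPM per nucleus over all members, and in nuclei of at least 5000 UMIs drawn down to exactly 5000 UMIs each, called equal depth, which left out 17 Kit-positive and 63 Kit-low nuclei. That comparison held 74 Kit-positive and 31 Kit-low nuclei with medians of 20200 and 7227 UMIs before the draw, and 4 of the 74 and 9 of the 31 came from well 2. Values for well 1 alone (70 and 22 nuclei) are added for most gene lists. Where the share held by the 5 highest nuclei is given, 5 nuclei are a larger part of the Kit-low set than of the Kit-positive set. Such shares would thus differ even at the same spread.

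**Figure D1:**
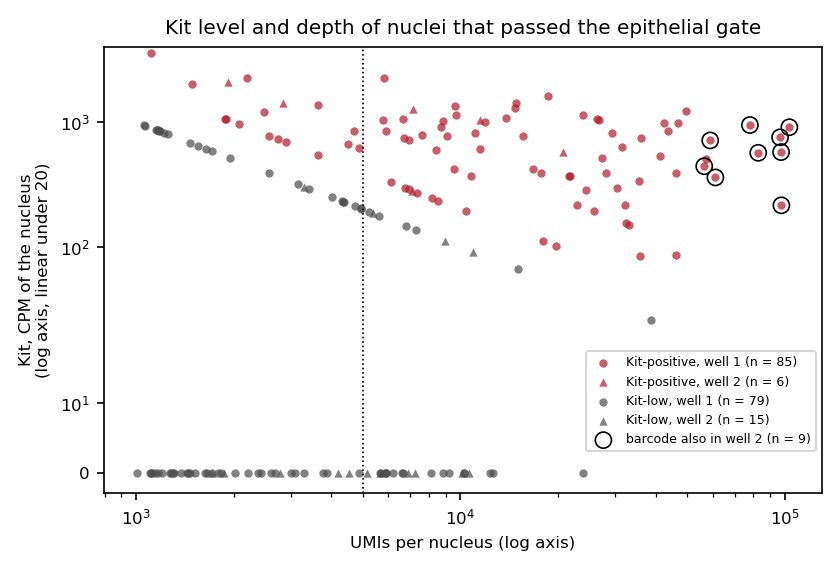
Kit level (CPM of the nucleus, log axis, linear under 20) against UMIs per nucleus (log axis) for the 91 Kit-positive nuclei in red and the 94 Kit-low nuclei in grey, with circles for well 1, triangles for well 2, rings for barcodes found in both wells and a dotted line at 5000 UMIs. The Kit-low nuclei lie at 0 or on the line that a single UMI makes, and the sets overlap in Kit level below 5000 UMIs and also above, where 6 of 74 Kit-positive nuclei lie at or under the highest Kit-low level of 192 CPM.

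Some of the deepest Kit-positive nuclei share their barcode sequence with a barcode of the other well. These 9 barcode sequences had 56453 to 103328 UMIs in well 1, where all 9 passed the Kit gate, and 336 to 560 UMIs in well 2, where none passed the depth gate. They held 34.8% of all 2104096 UMIs of the Kit-positive set. All 10 of the deepest barcodes in the matrix were Kit-positive nuclei. For that reason each nucleus counts once in the mean CPM and in the equal-depth draw, and the 2 main gene lists are also given without these nuclei.

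The epithelial label held up against genes that the gate did not use. The 14 other adhesion, polarity and keratin genes summed to 2382 CPM in the Kit-positive nuclei, 2301 CPM in the Kit-low nuclei and 255 CPM in the macrophage set. The T and innate lymphoid cell list was high in both sets (1765 and 1774 CPM) through Rora (1515 and 1582 CPM) and Gata3 (246 and 178 CPM), a luminal transcription factor gene, and 6 of its 12 markers were at 0 in the Kit-positive nuclei. Mast cell markers were near absent. Cpa3, Mcpt4, Tpsb2, Fcer1a and Ms4a2 had 0 UMIs in the Kit-positive nuclei, where a floor of 3 UMIs would be 1.43 CPM. Of 15 mast cell markers 11 were at 0. The list's sum of 48.4 CPM came almost wholly from Mitf (45.9 CPM), which stood at 48.8 CPM in the Kit-low nuclei and 674 CPM in the macrophage set. Melanocyte and Schwann cell markers summed to 339 CPM, again in genes shared with luminal cells (Sox10, 215 CPM, and Erbb3, 72.5 CPM), with 5 of the 10 markers at 0. B cell markers (1.14 CPM), endothelial markers (30.9 CPM), fibroblast and pericyte markers (30.0 CPM) and adipocyte markers (53.6 CPM) were all low.

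RNA of macrophage marker genes was present at a low level, with a higher mean over all depths in the Kit-low nuclei. The 12 macrophage markers that are not in the gate summed to 330 CPM in the Kit-positive nuclei (range 0 to 2080 CPM) and 1022 CPM in the Kit-low nuclei (range 0 to 18025 CPM), against 5365 CPM in the macrophage set. The medians were 213 CPM in Kit-positive and 322 CPM in Kit-low nuclei. Cd14, also in the luminal progenitor list, is among these markers and had 28 equal-depth UMIs in Kit-positive and 4 in Kit-low nuclei. Between 5000 and 10000 UMIs the mean was higher in Kit-positive nuclei (528 against 419 CPM), and in the other depth classes it was lower. At equal depth the levels were 259 and 342 CPM, a ratio of 0.76 (0.54 to 1.08). In the other direction, RNA of milk genes was found in the macrophage set, where Csn3 (kappa-casein) averaged 220 CPM and Wfdc18 150 CPM. A share of nuclei with a UMI of an abundant milk gene thus needs this background beside it.

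At equal depth, genes of milk and of the alveolar cell were higher in Kit-positive nuclei. The list of 20 genes summed to 6173 CPM in Kit-positive nuclei and 2748 CPM in Kit-low nuclei, a ratio of 2.25 (2.02 to 2.50), and in well 1 alone to 6414 and 3000 CPM, a ratio of 2.14 (1.90 to 2.41). Of the 8 members with at least 50 UMIs over both sets, 6 were 2-fold or more higher in Kit-positive nuclei and 0 were 2-fold or more lower, against 132 (4.86%) and 98 (3.61%) of the 2718 genes measured so. In well 1 alone 5 of 7 were higher and 0 lower, against 5.29% and 2.60% of 2345 genes. Per nucleus, the list had a median of 20 UMIs in 5000 in the Kit-positive nuclei (quartiles 11.3 and 34), against 11 in the Kit-low nuclei (5 and 19.5) and 5 in the macrophage set (2 and 7). The Kit-positive and Kit-low ranges overlapped, from 0 to 167 and from 1 to 62 UMIs.

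The 6 members that were 2-fold or more higher at equal depth were Spp1, Csn3, Ltf, Xdh, Lalba and Lcn2. Spp1 (osteopontin) had 521 equal-depth UMIs in 41 of 74 Kit-positive nuclei and 44 in 10 of 31 Kit-low nuclei, a ratio of 4.96 (3.64 to 6.91). It was concentrated in few nuclei, with 304 of the 521 UMIs in 5 Kit-positive nuclei and 39 of the 44 in 5 Kit-low nuclei. The share of macrophage-set nuclei with a Spp1 UMI is not given here. Csn3 had 594 UMIs in 68 Kit-positive nuclei and 95 in 23 Kit-low nuclei, 2.62 times as high (2.11 to 3.29). A Csn3 UMI was thus found in 91.9% of Kit-positive, 74.2% of Kit-low and 41.8% of macrophage-set nuclei at the same drawn depth (median before the draw 6073 UMIs in the macrophage set). Ltf (lactoferrin) had 64 UMIs in 22 Kit-positive nuclei and 4 in 2 Kit-low nuclei, a ratio of 6.70 (2.49 to 25.3), with 11.6% of macrophage-set nuclei holding one. Xdh, the xanthine oxidoreductase that coats milk fat globules, had 123 UMIs against 17 (3.03, 1.82 to 5.37). Lalba, the alpha-lactalbumin subunit of lactose synthase, had 47 UMIs against 6 (3.28, 1.40 to 9.39). Lcn2 (lipocalin 2) had 489 against 101 (2.03, 1.63 to 2.54).

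Not every milk gene took part. Wfdc18, a whey acidic protein relative, had 345 UMIs against 107 (1.35, 1.08 to 1.69), and Mfge8, a milk fat globule protein, had 35 against 20 (0.73, 0.41 to 1.34). The major milk protein genes of lactation were near absent in both sets: over all depths Csn2 had 5 UMIs in Kit-positive and 4 in Kit-low nuclei, Csn1s1 had 6 and 8, and Wap had 2 and 4. These are raw counts out of 2104096 UMIs in the Kit-positive set and 436513 in the Kit-low set. In summed counts each was thus lower in Kit-positive nuclei, at very few UMIs.

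**Figure D2:**
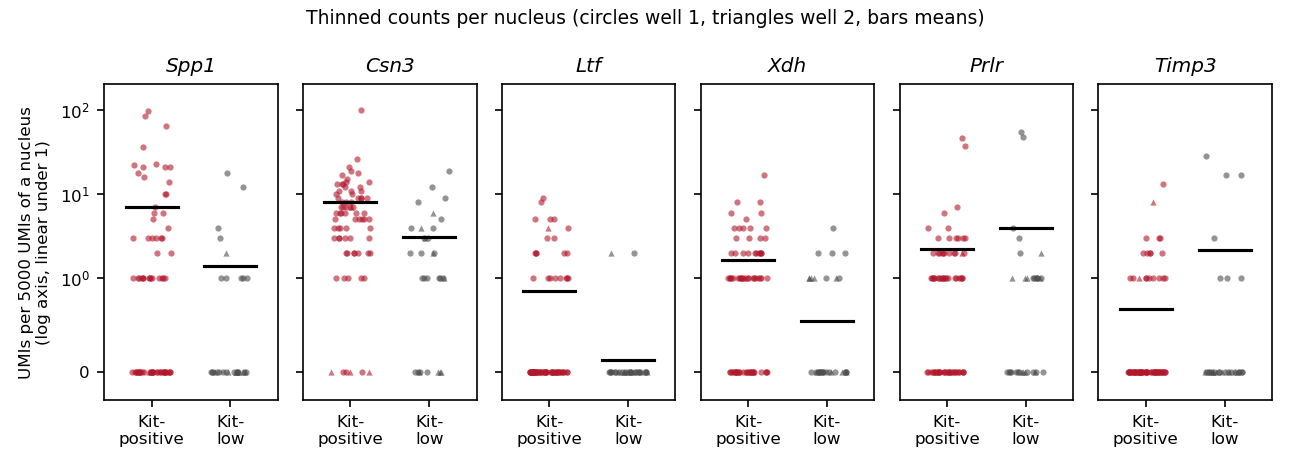
UMIs per nucleus (log axis, linear under 1) of 6 genes in nuclei of at least 5000 UMIs drawn down to 5000, with 74 Kit-positive nuclei on the left and 31 Kit-low nuclei on the right of each panel, circles for well 1, triangles for well 2 and bars for means. Spp1, Csn3, Ltf and Xdh have higher means in Kit-positive nuclei, while Prlr and Timp3 have lower ones, where 2 (Prlr) and 3 (Timp3) Kit-low nuclei hold most of the UMIs. Every pair of clouds overlaps.

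Over all depths the milk list had close means in both sets, but not close medians. Its mean was 6336 CPM per nucleus in the Kit-positive set and 6252 CPM in the Kit-low set, a ratio of 1.01. The median nucleus stood at 4570 CPM in the Kit-positive set (highest 36188 CPM) and 3322 CPM in the Kit-low set (highest 52047 CPM), and the CPM of summed counts gave a ratio of 1.58. By mean CPM 1 of 11 members (Xdh, 293 against 140 CPM) was 2-fold or more higher, with 0 lower. The background here was 192 genes higher (3.59%) and 161 lower (3.01%) of 5354. Split by depth, the list stood at 7536 CPM in 8 Kit-positive nuclei and 8224 CPM in 41 Kit-low nuclei of 1000 to 2500 UMIs, and at 5822 and 7606 CPM (9 and 22 nuclei) at 2500 to 5000 UMIs. At 5000 to 10000 UMIs it stood at 5403 and 2453 CPM (22 and 21 nuclei), and above that at 6635 and 3170 CPM (52 and 10 nuclei). The list's mean was thus lower in Kit-positive nuclei in both classes under 5000 UMIs and higher in both classes above. The lower means rest on weak ground. At 1000 to 2500 UMIs the CPM of summed counts was close, at 7842 in Kit-positive and 7885 in Kit-low nuclei. At 2500 to 5000 UMIs the Kit-low mean includes the nucleus of 52047 CPM, which had 3420 UMIs. Between 5000 and 10000 UMIs, where the medians before the draw were close at 7234 and 6184 UMIs, the equal-depth ratio was 2.05 (1.77 to 2.38), and leaving out the 9 nuclei with shared barcodes gave 2.04 (1.81 to 2.30) in well 1.

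**Figure D3:**
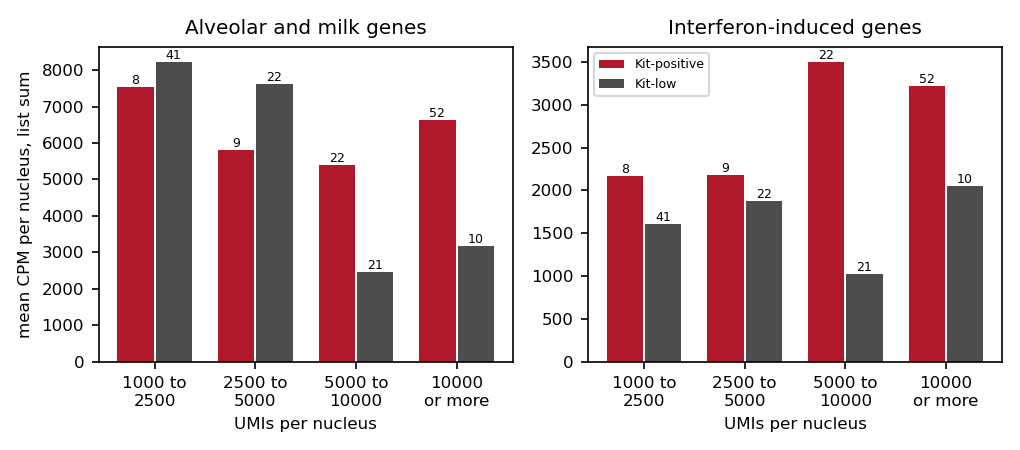
Mean CPM per nucleus of the alveolar and milk list (left) and the interferon-induced list (right) by depth of the nucleus, with Kit-positive nuclei in red left of Kit-low nuclei in grey and the number of nuclei above each bar. Milk genes are lower in Kit-positive nuclei in both classes under 5000 UMIs and higher in both classes above, while interferon-induced genes are higher in all 4 classes. Both wells are pooled.

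Interferon-induced genes were also higher in Kit-positive nuclei, in a list drawn up after the values had been seen. Its 28 genes summed to 3094 CPM per nucleus in Kit-positive nuclei and 1586 CPM in Kit-low nuclei over all depths, a ratio of 1.95, with 12 of 23 members 2-fold or more higher and 0 lower, against 3.59% and 3.01% of all genes measured. At equal depth the ratio was 2.64 (2.27 to 3.08), with 10 of 15 higher and 0 lower, against 4.86% and 3.61% of all genes. In well 1 alone it was 2.14 (1.84 to 2.51), with 8 of 15 higher and 0 lower, against 5.29% and 2.60%. Without the shared barcodes the well 1 ratio was 2.02 (1.73 to 2.38), and between 5000 and 10000 UMIs it was 3.33 (2.69 to 4.16) over both wells and 2.77 (2.22 to 3.47) in well 1. The wells differed more than the Kit sets. Over all depths the list had 3289.5 CPM in well 1 and 322 CPM in well 2 in Kit-positive nuclei. In Kit-low nuclei it had 1842 and 240 CPM. The all-depth ratio in well 1 alone was 1.79, and ratios over both wells also hold the difference between wells.

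Ifit1, which binds foreign RNA, had 48 equal-depth UMIs in 24 of 74 Kit-positive nuclei and 3 in 2 of 31 Kit-low nuclei, a ratio of 6.70 (2.16 to 33.6). Ifi44 had 80 against 6 (5.59, 2.46 to 15.7) and the interferon-inducible GTPase gene Iigp1 73 against 6 (5.10, 2.23 to 14.3). Oasl2, of the oligoadenylate synthetase family, had 110 against 10 (4.61, 2.41 to 9.88). Tap1, the peptide transporter of antigen presentation, had 36 against 3 (5.03, 1.59 to 25.5). Stat2, a signalling gene, was less far apart, with 97 against 22 (1.85, 1.15 to 3.08). Usp18, a brake on the interferon receptor, had 11 against 7 (0.66, 0.23 to 2.003).

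These genes were unevenly spread over nuclei. The Kit-positive nuclei had a median of 9 list UMIs in 5000 (quartiles 3 and 32, highest 60) and 6 of 74 had 0, against a median of 2 (1 and 6.5, highest 57) and 4 of 31 at 0 in Kit-low nuclei. The 5 highest nuclei held 20.3% of the list's UMIs in the Kit-positive set (74 nuclei) and 68.0% in the Kit-low set (31 nuclei). The highest Kit-low nucleus, at 57 UMIs, thus came close to the highest Kit-positive one, at 60. In nuclei of at least 10000 UMIs the mean CPM per nucleus was 3223 in the 52 Kit-positive and 2054 in the 10 Kit-low nuclei, but the CPM of summed counts was 3277 and 3599. The macrophage set had a median of 6 (3 and 12).

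RefSeq promoter windows (build GRCm38.p6, the 250 bases before each annotated start) were searched on both strands for GAAANNGAAA, the core of the interferon-stimulated response element that STAT2 and IRF9 bind as parts of a complex. It was present in 8 of the 22 listed genes that have an entry (36.4%), against 936 of 27025 genes (3.46%). Among 15 milk genes with an entry 1 held it. The listed genes were chosen as interferon-induced, so their share describes the list and is no test of the Kit sets. TTCNNNGAA, the STAT5-type element, was present in 3 of these 15 milk genes, and in 2197 of the 27025 genes (8.13%). Ifit1, Isg15 and Stat2 are shown because they are a strongly different effector, the gene with the most matches of those printed, and a signalling member. They are given 5′ to 3′ on the gene's strand, with every base of a match in capitals (overlapping matches run together).
Ifit1 (chr19:34640639-34640888, plus strand): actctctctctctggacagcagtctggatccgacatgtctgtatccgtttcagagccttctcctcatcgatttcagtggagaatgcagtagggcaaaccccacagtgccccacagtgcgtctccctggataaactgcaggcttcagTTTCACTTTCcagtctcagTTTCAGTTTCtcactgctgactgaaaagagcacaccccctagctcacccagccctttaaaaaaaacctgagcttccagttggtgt
Isg15 (chr4:156200819-156201068, minus strand): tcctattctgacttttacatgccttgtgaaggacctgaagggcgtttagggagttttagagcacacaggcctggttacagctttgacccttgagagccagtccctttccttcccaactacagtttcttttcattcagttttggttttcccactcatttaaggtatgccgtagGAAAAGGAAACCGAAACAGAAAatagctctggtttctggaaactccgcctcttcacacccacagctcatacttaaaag
Stat2 (chr10:128270248-128270497, plus strand): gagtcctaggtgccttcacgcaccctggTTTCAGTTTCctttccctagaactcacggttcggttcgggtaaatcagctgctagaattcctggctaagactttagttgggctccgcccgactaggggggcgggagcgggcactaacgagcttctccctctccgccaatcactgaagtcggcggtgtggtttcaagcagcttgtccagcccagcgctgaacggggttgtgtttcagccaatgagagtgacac
A match describes the letters of the window and shows no binding. Isg15, an ubiquitin-like modifier with 3 matches, had 25 equal-depth UMIs against 2 (5.24, 1.31 to 45.6), Ifit1 had 2 matches and Stat2 had 1.

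Other genes of the luminal progenitor, beside Kit and Elf5, differed little as a sum. The 16 remaining genes of that list summed to 3661 CPM in Kit-positive nuclei and 3164 CPM in Kit-low nuclei (1.16), and at equal depth the ratio was 1.08 (0.98 to 1.20), or 0.997 (0.89 to 1.12) in well 1. The median ratio of single members was 1.26 over all depths (14 measured) and 1.42 at equal depth (9 measured), beside 1.05 and 1.03 over all genes. Over all depths 1 of 14 measured members, against 3.59% of all genes, was 2-fold or more higher, Itgb3 (88.6 against 40.2 CPM), the integrin beta 3 chain of alveolar progenitors. The transcription factor genes Sox10 (215 against 177 CPM), Sox9 (303 against 210 CPM) and Ehf (628 against 604 CPM) were close in level. Plet1, a surface protein of progenitors, had 521 against 522 CPM.

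Genes of the receptor's own pathway stood at like levels in both sets. Of 25 measured genes of KIT signalling, 0 were 2-fold or more higher and 0 lower, near the background of 3.59% and 3.01% of all genes. The list of 30 stood at 4553 against 4339 CPM (1.05), with an equal-depth ratio of 1.11 (1.01 to 1.21) and 1.04 (0.95 to 1.16) in well 1. Kitl, the ligand, was transcribed in the same nuclei, with 136 CPM in Kit-positive and 94.3 CPM in Kit-low nuclei, against 18.1 CPM in the macrophage set. At equal depth Kitl had 60 UMIs in 31 of 74 and 22 in 10 of 31 nuclei (1.14, 0.69 to 1.96). The adaptor gene Gab1 had 291 against 333 CPM, the PI3-kinase regulatory subunit gene Pik3r1 559 against 604 CPM, Stat3 679 against 548 CPM, and the feedback phosphatase gene Dusp6 49.0 against 88.7 CPM. Other receptor tyrosine kinases gave a ratio of 1.11 over all depths and 0.95 (0.84 to 1.08) at equal depth, with 0 of 11 members past 2-fold over all depths. Among these, Fgfr1 stood at 623 against 456 CPM and Erbb4, the neuregulin receptor, at 408 against 370 CPM.

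In the prolactin pathway the receptor gene Prlr was carried by few nuclei. It had 442 CPM in Kit-positive and 443 CPM in Kit-low nuclei over all depths. At equal depth it had 164 UMIs in 43 of 74 Kit-positive nuclei and 123 in 16 of 31 Kit-low nuclei, a ratio of 0.56 (0.44 to 0.71), and 0.43 in well 1. The 2 highest Kit-positive nuclei held 83 of the 164 UMIs and the 2 highest Kit-low nuclei 102 of the 123. The other 72 Kit-positive nuclei shared 81 UMIs and the other 29 Kit-low nuclei 21, so the lower Kit-positive level rests on 2 Kit-low nuclei. Stat5b, the signal carrier, had 127 against 128 CPM, and Nfib, a transcription factor that works with STAT5, had 3065 against 2503 CPM. The list as a whole, without Elf5, stood at a ratio of 1.13 over all depths, 1.04 (0.96 to 1.14) at equal depth and 0.94 (0.86 to 1.03) in well 1. Id2, which is needed for alveolar development, had 184 against 154 CPM, and 69 against 15 equal-depth UMIs (1.93, 1.09 to 3.63).

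Genes of the other mammary lineages were low in both sets. Esr1, the oestrogen receptor, had 46.9 against 63.6 CPM and Pgr, the progesterone receptor, 4.55 against 6.34 CPM. The hormone-sensing list, in which Prlr was the main gene, gave 1.05 over all depths, 0.63 (0.52 to 0.77) at equal depth and 0.497 (0.41 to 0.61) in well 1, with 82.2% of its equal-depth Kit-low UMIs in 5 nuclei. Basal keratins were scarce: Krt14 had 12 UMIs in 8 of 91 Kit-positive nuclei and 41 in 9 of 94 Kit-low nuclei, Krt5 had 0 and 1, and Lama3, a laminin chain, 3 and 29. These too are raw counts, out of 2104096 UMIs in the Kit-positive set and 436513 in the Kit-low set. The basal list as a whole had a ratio of 0.92 over all depths and 0.61 (0.51 to 0.73) at equal depth, or 0.66 (0.54 to 0.80) in well 1. Its largest member at equal depth was the integrin gene Itga6, with 234 UMIs in Kit-positive and 102 in Kit-low nuclei. The median nucleus was close, with 4 list UMIs in Kit-positive and 5 in Kit-low nuclei, while the 5 highest nuclei held 15.8% of the list in the Kit-positive set and 57.5% in the Kit-low set. The 3 members with enough UMIs to be measured over all depths had a median ratio of 1.19. Luminal transcription factors were shared, with a list ratio of 1.17 over all depths, 1.09 (1.02 to 1.15) at equal depth and 1.01 (0.94 to 1.08) in well 1, and Trps1, the most abundant of them in UMIs, at 6047 against 4539 CPM. NOTCH and WNT genes gave 1.08 and 1.02 (0.93 to 1.13), and mesenchymal transition genes, a list that summed to 4572 CPM in the macrophage set, 0.69 and 1.14 (0.85 to 1.56).

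The lists of G2 and M phase, of the early stress response and of glycolysis had lower mean levels in Kit-positive nuclei, and in each a few Kit-low nuclei held much of the total. The G2 and M phase list stood at 446 against 792 CPM (0.56), and at equal depth at a ratio of 0.68 (0.53 to 0.87), or 0.51 (0.39 to 0.67) in well 1. Mki67, the proliferation marker, had 24 equal-depth UMIs against 19 (ratio 0.53) and Top2a, a topoisomerase of dividing cells, 24 against 14 (0.72). The difference rests on few nuclei: 3 or more of the list's genes were found in 8 of 74 Kit-positive nuclei (10.8%, 4.78 to 20.2%) and 5 of 31 Kit-low nuclei (16.1%, 5.45 to 33.7%), intervals that overlap, and 5 nuclei held 66.1% of the list's UMIs in the Kit-positive set and 90.6% in the Kit-low set. S phase genes gave 0.95 over all depths and 0.85 (0.66 to 1.11) at equal depth. Immediate early and heat shock genes stood at 4743 against 7641 CPM (0.62), with 0 of 14 members 2-fold or more higher and 2 lower, against 3.59% and 3.01% of all genes. At equal depth the ratio was 0.79 (0.74 to 0.86), or 0.67 (0.62 to 0.74) in well 1. Over both wells the median nucleus had 16.5 list UMIs in the Kit-positive set and 13 in the Kit-low set, where 5 nuclei held 48.8% of the UMIs. In well 1 the medians were 15 and 18, and 5 Kit-low nuclei held 60.4%. Egr1 had 60 equal-depth UMIs against 70 (0.36), and the chaperone gene Hsp90aa1 537 against 271 (0.83). Hypoxia and glycolysis genes stood at 1924 against 2566 CPM (0.75), with 0 of 16 members higher and 4 lower, against the same shares of all genes, and at 0.68 (0.61 to 0.78) at equal depth. There the median nucleus had 8 list UMIs in the Kit-positive set and 12 in the Kit-low set, or 8 and 7 in well 1, where 5 Kit-low nuclei held 54.8%. In that list the pyruvate kinase gene Pkm had 247 against 386 CPM and Vegfa 145 against 251 CPM. Amino-acid transport and ATF4 genes, of interest under a low protein diet, gave 0.91 over all depths, 0.86 (0.75 to 0.99) at equal depth and 0.93 (0.79 to 1.10) in well 1.

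**Figure D4:**
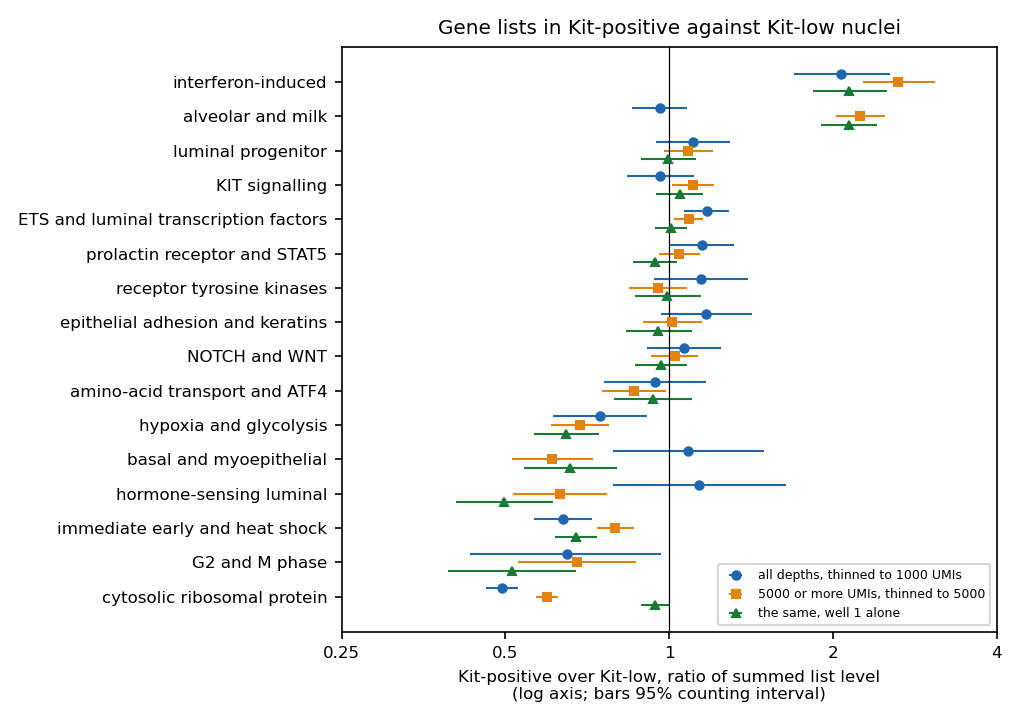
Ratio of the summed level of 16 gene lists in Kit-positive over Kit-low nuclei (log axis, bars for 95% counting intervals), without the genes of the gate. Circles are all nuclei drawn down to 1000 UMIs each, squares nuclei of at least 5000 UMIs drawn down to 5000 and triangles the same in well 1 alone. Interferon-induced genes lie near or above 2 in all 3, milk genes only at equal depth, and cytosolic ribosomal protein genes near 0.5 over all depths and near 1 in well 1 at equal depth.

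Single genes were ranked by mean CPM per nucleus among those 2-fold or more apart by 3 measures of level: mean CPM, CPM of summed counts, and counts drawn down to 1000 UMIs. By all 3 measures, 32 genes were higher and 72 lower in Kit-positive nuclei. Tmem127, an endosomal membrane protein that restrains mTORC1, led the higher ones with 94.0 against 12.3 CPM (7.62-fold) and had 40 against 6 equal-depth UMIs (2.79, 1.18 to 8.06). Chil1, a secreted chitinase-like protein, had 84.8 against 15.2 CPM and Hdac7, a class IIa histone deacetylase, 53.4 against 11.9 CPM. Il6st, which encodes gp130, the shared receptor chain of the interleukin-6 family, had 98.2 against 29.0 CPM and 39 against 4 equal-depth UMIs (4.09, 1.47 to 15.7). Znfx1, an interferon-inducible helicase, had 153 against 35.2 CPM. Gpam, which starts glycerolipid synthesis, had 38.2 against 12.0 CPM. The others of the first 12 were Tecpr1, Golga7, Dtna, Antxr2, Gprc5c and Fam160a2, at 3.25-fold to 4.63-fold. At equal depth 7 of the 12 were 2-fold or more higher, and 7 in well 1 alone. Antxr2 did not: it stood at 0.85 in well 1 at equal depth.

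Ribosomal protein genes made up 28 of the 72 lower genes (38.9%), against 77 of all 5354 genes measured (1.44%). Genes with a higher level in the macrophage set than in either carcinoma set made up 16 of the 72 (22.2%), against 27.4% of all genes measured. Of the first 12, 3 are predicted genes. Lgmn, a lysosomal protease, had 33.3 against 195 CPM, and the MHC class II genes H2-Ab1 and H2-Eb1 had 57.2 against 219 CPM and 65.2 against 249 CPM. All 3 were abundant in the macrophage set (1772, 873 and 1381 CPM), and at equal depth they stood at 0.98, 0.75 and 0.59. Genes that the macrophage set hardly holds were lower at equal depth as well: Gja1, which encodes connexin 43, had 17 against 37 UMIs (0.19, 0.10 to 0.35), and the calcium exchanger gene Slc24a3 had 10 against 19 (0.22, 0.09 to 0.50). In the Kit-low set 5 nuclei held 27 of the 37 Gja1 UMIs, and 1 nucleus held 11 of the 19 Slc24a3 UMIs. The 12 also held Nme2, Rps12 and Rps26, and at equal depth 8 of the 12 were 2-fold or more lower, or 4 in well 1.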

How the data were processed

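The authors deposited 1 matrix of UMI counts, with 32285 genes and 1838 barcodes. It was made with Cell Ranger 5.0 on mm10, per the submitters' processing notes (version 5.0.1 per the file headers). Whether intronic reads were counted is not given in the sources used here. The 2 barcode suffixes were read as wells, and 0 of 2 could be mapped to a genotype, so no genotype comparison was made.

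From these counts, nuclei were gated as the report describes, and CPM per nucleus, CPM of summed counts and counts drawn down at random to 1000 or 5000 UMIs were computed (numpy 2.4.6 and scipy 1.17.1 under Python 3.11.15, with pandas 2.3.3). The functions were tested on simulated data. Genes entered the all-depth comparison with 100 UMIs over both sets and a UMI in 20 nuclei, and the equal-depth one with 50 UMIs; genes of the gate were left out, also from list sums. A gene was counted as higher or lower at 2-fold, with no p-value. Named genes are the 12 highest and 12 lowest by mean CPM among those past 2-fold by 3 measures, with predicted genes only counted and some genes not reported here. Intervals are exact at 95% (Poisson, Clopper-Pearson for shares, conditional binomial for ratios) and cover counting error only. Scrublet (scanpy 1.11.5), run per well, called 1 of 1092 nuclei in well 1 and 2 of 397 in well 2, none in either set. At so low a yield the caller cannot be taken to have worked, so doublets were not removed. Of the gene identifiers, 32235 were found in GENCODE vM21. Promoter sequences are from RefSeq.

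The members, the 25 gene lists and the alternatives were chosen with earlier results of these data known. The interferon, ribosomal protein and mitochondrial lists, the equal-depth values of well 1 and the ranking of genes at equal depth were added after values had been seen. Figures were drawn with matplotlib 3.10.9.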

Additional observations from a re-analysis of the deposited data

Results flagged for a closer look

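The barcodes of well 2 that share their sequence with a Kit-positive nucleus of well 1 lay outside all gates and entered no comparison, yet they were not empty. The 9 such barcodes held 3980 UMIs in all, 0.498 to 0.598% of the UMIs of their well 1 counterparts, and 3962 of the 3980 were in genes that the counterpart also had. The source of these UMIs was not tested.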

How the results depend on the processing

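The number of Kit-positive nuclei was 43 with an epithelial gate of 2000 CPM, 74 with a leukocyte gate of 100 CPM, 74 with 3 or more Kit UMIs, 125 with 1 or more and 74 among nuclei of at least 5000 UMIs. The milk list's ratio of 1.01 was 1.58 in summed CPM, 1.24 with the Kit-low set at 0 Kit UMIs, 1.25 in nuclei of at least 2000 UMIs and 2.61 when nuclei of at least 5000 UMIs were split at 200 CPM of Kit. At equal depth it was 2.25, or 2.40 with another random draw, and 2.14 in well 1. The interferon list's 1.95 was 1.498 in summed CPM, 1.79 in well 1, 2.64 at equal depth and 2.64 with the split at 200 CPM. The 192 genes 2-fold or more higher became 497 and 28 with filters of 50 and 300 UMIs, 1723 with none, 125 in summed CPM, 107 with median-ratio scaling, 663 in counts drawn to 1000 UMIs and 124 in well 1 at equal depth. The 161 lower ones became 365, 49 and 2800 with these filters, 561 in counts drawn to 1000 UMIs, 98 at equal depth and 61 in well 1 at equal depth. The cause of these shifts was not tested. Among the 36 single genes and 4 lists past 2-fold, 6 values fell on the other side of 1: endothelial markers (1.03 in counts drawn to 1000 UMIs), Antxr2 (0.58 with the split at 200 CPM and 0.85 in well 1 at equal depth), H2-Ab1 (1.04) and Lgmn (1.12) with the split at 200 CPM, and Nme2 (1.73 in well 1 at equal depth). Of those not past 2-fold, 11 of 17 genes and 14 of 22 lists fell on the other side of 1 under at least 1 of 14 alternatives. No paired analysis was possible because each genotype had 1 sample and the wells carry no replicate number. Depth limits genes under about 50 UMIs, and the 31 deep Kit-low nuclei limit every equal-depth ratio.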

Other observations

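Ranked by their equal-depth ratio in well 1, a ranking added after values had been seen, the 10 genes furthest up in Kit-positive nuclei held Ltf, Spp1, Ifit1, Ifi44 and Iigp1, described above. The others included Lrg1, a secreted leucine-rich glycoprotein, with 72 equal-depth UMIs in the Kit-positive nuclei and 8 in the Kit-low nuclei over both wells (3.77, 1.81 to 9.07). The 10 genes furthest down included the calcium channel gene Cacna1c (16 against 37, ratio 0.18), the insulin receptor substrate gene Irs2 (21 against 44, 0.20), Rbms3, an RNA-binding protein gene (17 against 53, 0.13), the protease gene Ctsl (25 against 43, 0.24), and Gsr, which regenerates glutathione (24 against 44, 0.23). In the Kit-low set, 5 nuclei held 79.5 to 83.8% of the UMIs of each of these 5 genes. Timp3, a metalloproteinase inhibitor, had 50 against 68 (0.31), and 3 of the 31 Kit-low nuclei held 62 of the 68, so that this ratio rests on them.

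Cytosolic ribosomal protein transcripts were higher in well 2 in both sets, and in well 1 at equal depth the Kit sets were close. Over all depths the 80 genes summed to 13549 CPM in Kit-positive and 27896 CPM in Kit-low nuclei (0.49), and at equal depth to 12570 and 21097 CPM (0.60). By well, the all-depth values were 11981 and 23994 CPM in well 1 (0.499) and 35775 and 48449 CPM in well 2. In well 1 alone the equal-depth values were 11697 and 12409 CPM (0.94, 0.89 to 1.003). Mitochondrially encoded transcripts had a ratio of 0.66 over all depths, 1.31 (1.14 to 1.51) at equal depth and 2.62 (2.11 to 3.29) in well 1 at equal depth. In that last comparison 6 of 6 members were 2-fold or more higher and 0 lower, against 5.29% and 2.60% of all genes. The medians of the list in well 1 were 3 UMIs in Kit-positive and 2.5 in Kit-low nuclei, with 61.1 and 65.2% of the UMIs in 5 nuclei of each set. Neither well could be tied to a genotype.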
